A study of Mus musculus with 9 samples.

Results

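The genes described here encode 10 cell surface receptors of myeloid cells, taken as a set of named genes: *Trem1*, *Trem3*, *Cd300a*, *Cd300lb*, *Cd300ld*, *Cd300lf*, *Lilrb4a*, *Pirb*, *Siglece* and *Sirpa*. All 10 were found by symbol among the 53801 genes of the count tables, of which 25402 had at least 1 count, and all 10 passed the filter on low counts in each comparison. The RNA came from cells sorted as CD11c-Ly6G-CD11b+CD45high from male C57BL/6J mice aged 9 weeks, a gate meant to hold monocytes and macrophages. Both stroke groups were collected on day 5 after dMCAO, in which the distal middle cerebral artery and the common carotid artery of the left side are closed for good, and the sham group came from the blood of sham-operated mice, for which the text of the study names no day. Each group had 3 libraries. A brain library pooled cells from the ipsilesional hemispheres of 5 mice, and a blood library came from 1 mouse. Brain tissue was dissociated with a kit on a heated dissociator and fractionated on a Percoll gradient, while blood was fractionated in Ficoll. The preparation thus differed between all brain and all blood libraries, and there was no sham brain. A difference between brain and blood thus cannot be told apart into effects of tissue, stroke, preparation or cells that do not circulate.

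These receptors are type I membrane proteins of the immunoglobulin superfamily, and most of them sit in gene clusters that hold both activating and inhibitory members. The activating ones have short tails and borrow a signal from an adaptor with an ITAM motif, DAP12 (*Tyrobp*) or the Fc receptor gamma chain (*Fcer1g*), which recruits the kinase SYK. The inhibitory ones carry ITIM motifs in their own tails. These motifs recruit the phosphatases SHP-1 (*Ptpn6*) and SHIP-1 (*Inpp5d*) and can restrain phagocytosis and cytokine release. TREM1 is known for amplifying the response of neutrophils and monocytes to microbial and danger signals, and SIRPα for the "do not eat me" signal that it receives from CD47. By adaptor or ITIM motif, *Trem1*, *Trem3*, *Cd300lb* and *Cd300ld* were taken as the 4 activating members. *Cd300a*, *Cd300lf*, *Lilrb4a*, *Pirb*, *Siglece* and *Sirpa* were taken as the 6 inhibitory ones. This grouping goes by adaptor or motif alone, and whether a member restrains or promotes phagocytosis in these cells was not measured.

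Positions are those of GRCm38. *Trem1* (ENSMUSG00000042265) lies on chromosome 17 from 48232768 to 48246924, and *Trem3* follows it on the same strand from 48247777 to 48258841. The 4 CD300 genes stand together on chromosome 11: *Cd300a* from 114890041 to 114904654 on the plus strand, and *Cd300lb* from 114922781 to 114934386, *Cd300ld* from 114982274 to 114989922 and *Cd300lf* from 115116214 to 115133992 on the minus strand. *Pirb* (3711409 to 3720391) and *Siglece* (43651070 to 43660161) are both on the minus strand of chromosome 7. *Lilrb4a* is on chromosome 10 from 51490956 to 51496611, and *Sirpa* on chromosome 2 from 129592835 to 129632228, both on the plus strand. The values cover whole genes, exons joined, so isoforms are not separated.

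RefSeq promoter sequences (GRCm38.p6) were held for 7 of the 10 members, all but *Trem3*, *Lilrb4a* and *Sirpa*. The 250 bases before the RefSeq start were searched on both strands for 4 motifs chosen for factors that act in myeloid cells. The PU.1-type motif GAGGAAG was in 5 of the 7 (*Cd300a*, *Cd300ld*, *Cd300lf*, *Pirb* and, in 2 places, *Siglece*) and in 10.6% of all 32851 promoters of the same length. The loose NF-kB motif (GGG, any 5 bases, CC) was in 5 of the 7 and in 45.8% of all promoters, the C/EBP motif TTGCNNAA in 1 (*Cd300a*) and 9.56%, and the AP-1 motif TGANTCA in none and 6.75%. In *Cd300ld* a PU.1 match and an NF-kB match overlapped. A match is a run of letters and not a shown binding site. Of the members called as different between brain and stroke blood, the 3 with a promoter in the table are printed here, 5′ to 3′ on the strand of the gene, so that the reader can see the window that was searched, with PU.1-type matches in capitals (CTTCCTC is the motif on the other strand). They are chr17:48232489-48232738 (plus strand) for *Trem1*, chr11:115133993-115134242 (minus strand) for *Cd300lf* and chr7:43660162-43660411 (minus strand) for *Siglece*.
Trem1: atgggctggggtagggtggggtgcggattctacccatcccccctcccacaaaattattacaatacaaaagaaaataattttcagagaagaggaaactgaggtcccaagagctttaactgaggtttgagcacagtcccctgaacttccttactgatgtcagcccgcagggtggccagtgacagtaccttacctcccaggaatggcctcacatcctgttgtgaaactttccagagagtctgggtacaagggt
Cd300lf: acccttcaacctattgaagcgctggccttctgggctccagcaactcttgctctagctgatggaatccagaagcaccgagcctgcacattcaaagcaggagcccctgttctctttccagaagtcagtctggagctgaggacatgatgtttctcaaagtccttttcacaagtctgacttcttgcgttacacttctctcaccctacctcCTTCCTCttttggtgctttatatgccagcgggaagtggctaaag
Siglece: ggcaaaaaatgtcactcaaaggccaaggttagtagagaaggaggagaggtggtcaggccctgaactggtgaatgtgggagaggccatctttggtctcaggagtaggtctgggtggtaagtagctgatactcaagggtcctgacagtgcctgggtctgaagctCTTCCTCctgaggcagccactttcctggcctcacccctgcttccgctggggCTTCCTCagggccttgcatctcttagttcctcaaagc
The *Trem1* window held none of the 4 motifs. The *Cd300lf* window held 1 PU.1-type match, 38 to 44 bases before the start, and no match of the other motifs. The *Siglece* window held 2 PU.1-type matches, at 31 to 37 and 82 to 88 bases. It also held loose NF-kB matches at 53 to 62, 166 to 175 and 191 to 200 bases, which are not in capitals.

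Total counts ranged from 18475118 to 22623578 per library, so that 3 counts corresponded to 0.133 to 0.162 counts per 1000000 counts (CPM, scaled here by library size and TMM factors), and every member was far above this in every library. *Ly6g*, whose protein the gate excluded, was at a mean of 0.300 CPM in brain and 0.273 in stroke blood, while *Itgax*, which encodes the excluded CD11c, was at 94.2 CPM in brain and 14.7 in stroke blood. A list of 9 microglia genes summed to 1383, 2093 and 3997 CPM in brain replicates 1, 2 and 3, against 146 to 208 CPM in stroke blood and 161 to 211 CPM in sham blood. Of 5 genes of border-associated macrophages, the sum was 51.4 to 178 CPM in brain and 11.4 to 26.2 CPM in the 6 blood libraries. The 6 erythroid genes summed to 3.77 to 13.7 CPM in brain, 14197 to 19954 CPM in stroke blood, and 1261, 34213 and 31280 CPM in sham blood replicates 1, 2 and 3. The 8 platelet genes summed to 34.7 to 79.3 CPM in brain, 352 to 429 CPM in stroke blood, and 19.6, 483 and 719 CPM in sham blood. Sham replicate 1 thus stood apart from the other 5 blood libraries in both lists, and results against sham blood are also given without it. The 7 dendritic cell genes summed to 924, 724 and 704 CPM in brain, 130, 238 and 108 CPM in stroke blood and 359, 274 and 115 CPM in sham blood. The 5 classical monocyte genes summed to 4578 to 5733 CPM in brain, 11343 to 13982 CPM in stroke blood and 15078 to 33092 CPM in sham blood. All 5 were lower in every brain library than in every stroke blood library. The part of these cells in the results was not tested. In bulk libraries fewer cells of a type and less RNA per cell cannot be told apart.

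**Figure D1:**
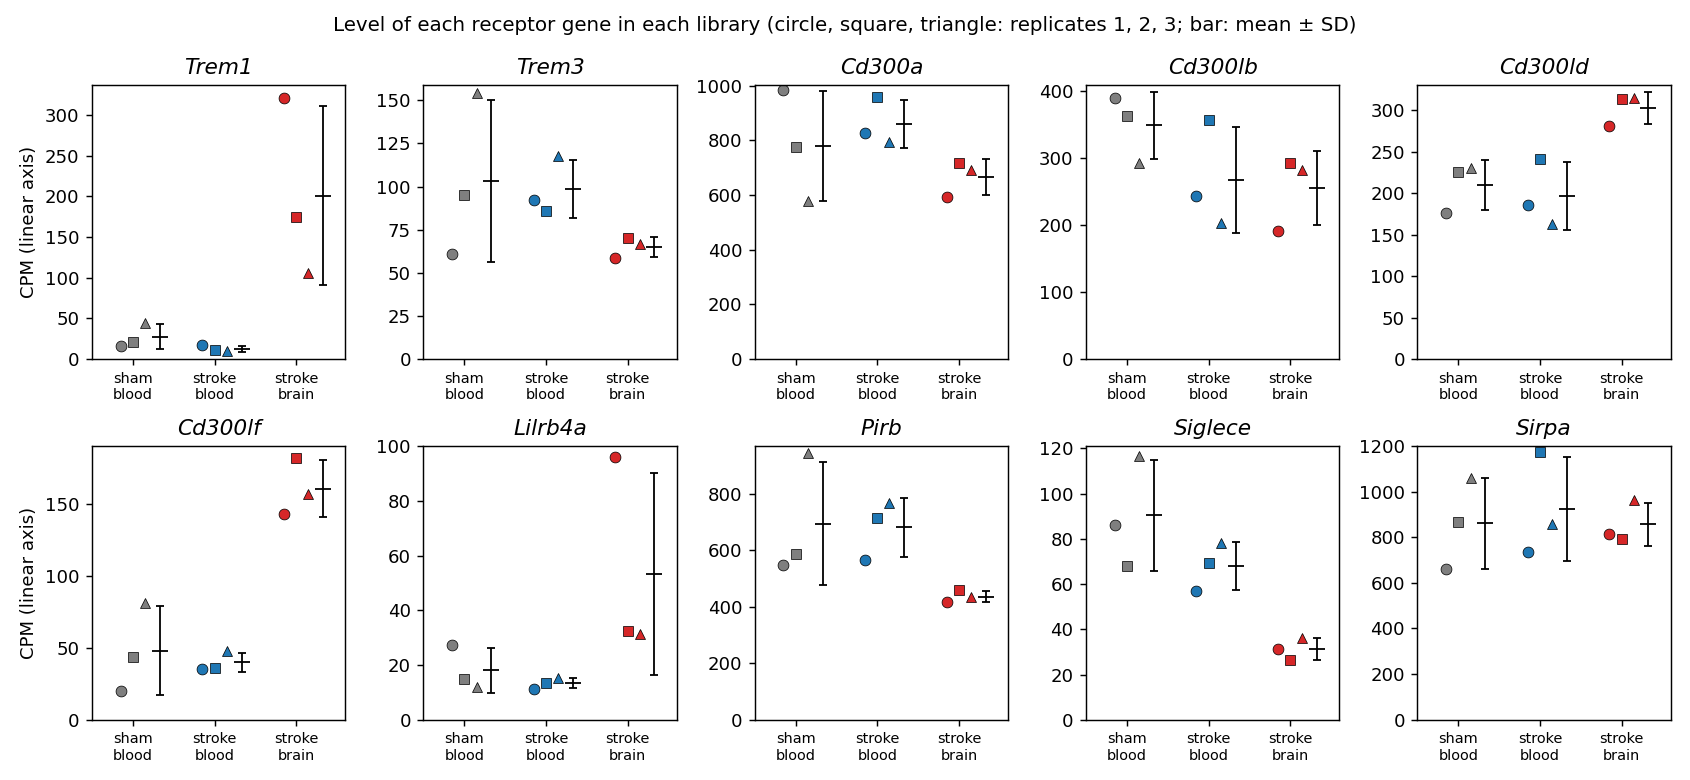
Level of each of the 10 receptor genes in the 9 libraries, in CPM on linear axes that start at 0, with circles, squares and triangles for replicates 1, 2 and 3 and a bar for the mean ± SD of the 3 libraries. For *Trem1*, *Cd300ld*, *Cd300lf* and *Lilrb4a* every brain library stands above every blood library, and for *Pirb* and *Siglece* every brain library stands below.

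The first comparison asked how the receptors of cells in the stroke brain differed from those of circulating cells in mice with stroke. *Trem1* was 16.5-fold higher in brain, *Cd300lf* 4.11-fold and *Lilrb4a* 4.06-fold, and *Siglece* was 2.14-fold lower. *Sirpa*, *Cd300lb* and *Cd300a* did not pass the test. Thus 4 of 10 members were differentially expressed genes (DEGs: absolute log2 fold change above 1 and Benjamini-Hochberg adjusted p below 0.05 in edgeR's quasi-likelihood test), 3 higher and 1 lower, where 21% of the 13189 genes tested were DEGs, 13.1% higher and 7.86% lower. The median log2 fold change was -0.06 over the members and 0.06 over all genes tested. For 8 of 10 members the 2 groups had no overlap, against 48% of all genes. In each comparison, overlap of members was read from CPM scaled over all 9 libraries. That of all genes was read from CPM scaled within the pair of groups, so the measures differ slightly. Without the fold threshold 7 of 10 members passed the adjusted p, 4 higher and 3 lower, where 30.6% of all genes did, 17.5% higher and 13.1% lower. The DEGs were 1 of the 4 activating and 3 of the 6 inhibitory members.

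Among the activating members, *Trem1* stood at 321, 174 and 106 CPM in brain replicates 1, 2 and 3, and at 17.2, 10.6 and 9.65 CPM in stroke blood. The lowest brain library was thus well above the highest blood library, although the brain libraries themselves spread widely (201 ± 110 CPM, SD, n = 3, against 12.5 ± 4.09 CPM). The log2 fold change was 4.04 (SE 0.43, edgeR adjusted p = 0.000226), with values from 3.51 to 4.35 when any 1 library was left out. Brain replicate 1, with the highest *Trem1*, had the lowest microglia sum, and replicate 3, with the lowest *Trem1*, the highest. The neutrophil list of 10 genes, cells in which *Trem1* is also known to be abundant, summed to 1249, 1048 and 1652 CPM in brain replicates 1, 2 and 3 and to 673, 1145 and 932 CPM in stroke blood. These sums overlapped, but the genes of the list went different ways. *S100a8*, *S100a9*, *Camp*, *Ngp* and *Ltf*, 5 of the 10, were higher in every brain library than in every stroke blood library, with means of 144, 138, 51.3, 220 and 50.8 CPM in brain against 31.0, 12.3, 2.09, 7.28 and 1.40 CPM. *Mmp8*, a collagenase of neutrophils, was lower in every brain library (means of 127 and 447 CPM), and the other 4, with *Ly6g* near 0 in both groups, overlapped. The sum of the dendritic cell genes, given above, was higher in all brain libraries and had the same order over the brain replicates as *Trem1*. The part of these cells in the *Trem1* difference was not tested.

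*Trem3*, its DAP12-coupled neighbour, did not move with it. The gene was at 58.7, 70.0 and 66.7 CPM in brain and 92.5, 85.9 and 117 CPM in stroke blood, so that all 3 brain libraries lay below all 3 blood libraries. The log2 fold change of -0.57 (SE 0.17, edgeR adjusted p = 0.0317) was below the fold threshold, and the adjusted p was above 0.05 in 5 of 6 fits that left out 1 library, up to 0.0952. On the scale of CPM per kilobase of exon (RPKM), where levels of different genes can be compared, the ratio of *Trem1* to *Trem3* was 1.82, 0.826 and 0.529 in brain, 0.0616, 0.0408 and 0.0273 in stroke blood and 0.0878, 0.0734 and 0.0965 in sham blood. The pair was therefore of similar level in brain and more than 10-fold apart in all 6 blood libraries.

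*Cd300ld*, an activating receptor that signals through the Fc receptor gamma chain, was at 281, 314 and 314 CPM in brain and at 186, 241 and 162 CPM in stroke blood. Its groups did not overlap, and the log2 fold change was 0.65 (SE 0.18, edgeR adjusted p = 0.0215). Without a given library the adjusted p was 0.0086 to 0.0847, under 0.05 in 2 of 6 fits. *Cd300lb*, a DAP12-coupled receptor, was at 191, 292 and 282 CPM in brain and at 244, 356 and 203 CPM in stroke blood, so the groups overlapped throughout. Its log2 fold change of -0.05 (SE 0.24, edgeR adjusted p = 0.899) does not show that the levels were equal.

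Among the inhibitory members, *Cd300lf*, which carries ITIM motifs and is known as the receptor of murine norovirus, was at 143, 183 and 157 CPM in brain and 35.6, 36.4 and 47.7 CPM in stroke blood. All brain libraries were about 3 times or more above the blood libraries, with a log2 fold change of 2.04 (SE 0.18, edgeR adjusted p = 7.96e-05). This was the smallest adjusted p among the members. In its own cluster *Cd300a*, also with ITIM motifs, was at 593, 716 and 692 CPM in brain and 828, 960 and 794 CPM in stroke blood. These groups did not overlap either, with brain the lower, but the log2 fold change of -0.34 (SE 0.15) gave an edgeR adjusted p of 0.113.

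*Lilrb4a* encodes gp49B, an inhibitory receptor of myeloid and mast cells. It was at 96.0, 32.4 and 31.6 CPM in brain and 11.4, 13.6 and 15.3 CPM in stroke blood. Brain replicate 1 was about 3 times as high as the other two, which were still above all blood libraries. The log2 fold change was 2.02 (SE 0.43, edgeR adjusted p = 0.007), and 1.27 (adjusted p = 0.00272) without brain replicate 1. This library was also the one with the highest *Trem1*, the highest dendritic cell sum and the highest sum of 6 non-classical monocyte genes, 3756 CPM against 1241 and 1519 CPM in the other brain libraries. The last rested mostly on *Nr4a1*, an immediate early gene that many stimuli raise, at 3081, 692 and 863 CPM in brain replicates 1, 2 and 3. The other 5 genes of that list summed to 675, 549 and 656 CPM in brain. Of these, *Ace* (151, 39.2 and 52.7 CPM), *Spn* (68.4, 41.2 and 57.8 CPM) and *Ear2* (110, 90.4 and 108 CPM) were highest in replicate 1. *Treml4* and *Cd300e* were lowest there. Their part in the *Lilrb4a* value was not tested. The counts of *Lilrb4a* need caution. In the GENCODE M21 annotation 96.1% of its 1010 coding bases and 35.9% of all its exon bases lie in exons of other genes, almost all in the read-through gene *Gm49339* on the same strand. *Gm49339* had 1 count in all 9 libraries together, and HTSeq by default leaves out a read that lies in 2 genes, but the setting used is not stated. The value of *Lilrb4a* may therefore rest mostly on its remaining exon bases. The neighbour *Lilr4b*, the paralog also known as *Lilrb4b*, which shares 258 of the 1307 windows of 75 bases of the *Lilrb4a* transcript, was at 326, 203 and 174 CPM in brain and 40.1, 41.4 and 51.7 CPM in stroke blood. Its log2 fold change was 2.43 (SE 0.26, edgeR adjusted p = 0.000226). The exons of *Lilr4b* also overlap *Gm49339* on the same strand, so its counts are uncertain as well.

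*Pirb*, an ITIM receptor for MHC class I and for inhibitors of axon growth, was at 418, 458 and 433 CPM in brain and 565, 713 and 766 CPM in stroke blood. The brain libraries lay close together and below all blood libraries (436 ± 20.2 CPM against 681 ± 104 CPM, SD, n = 3). The log2 fold change of -0.62 (SE 0.16, edgeR adjusted p = 0.0164) was below the fold threshold, and the adjusted p was 0.0155 to 0.0674 with 1 library left out. Of the 3750 windows of 75 bases in the *Pirb* transcript, 31.1% were also found in activating *Pira*-type genes such as *Pira2* and *Lilra6*, so its counts are uncertain where the mapping could split such reads. *Pira2* itself had a log2 fold change of -0.40 (SE 0.23, edgeR adjusted p = 0.219) and *Lilra6* of -0.90 (SE 0.16, edgeR adjusted p = 0.00289).

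*Siglece*, which binds sialic acids and has an ITIM motif, was the only member DEG that was lower in brain. It stood at 31.3, 26.6 and 36.0 CPM in brain and at 56.9, 69.2 and 78.1 CPM in stroke blood, with no overlap. Its log2 fold change was -1.10 (SE 0.19, edgeR adjusted p = 0.00307). This value was close to the fold threshold: without brain replicate 2 it was -0.98, and with library size in place of TMM scaling -0.94, so that it was not called there, with adjusted p = 0.0169 and 0.00627.

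*Sirpa* was at 814, 792 and 965 CPM in brain and 735, 1175 and 859 CPM in stroke blood. The brain libraries lay inside the range of the blood libraries, and the log2 fold change was -0.08 (SE 0.20, edgeR adjusted p = 0.78). Its ligand gene *Cd47* was at 679, 662 and 619 CPM in brain and 726, 766 and 920 CPM in stroke blood, with a log2 fold change of -0.27 (SE 0.15, edgeR adjusted p = 0.196).

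**Figure D2:**
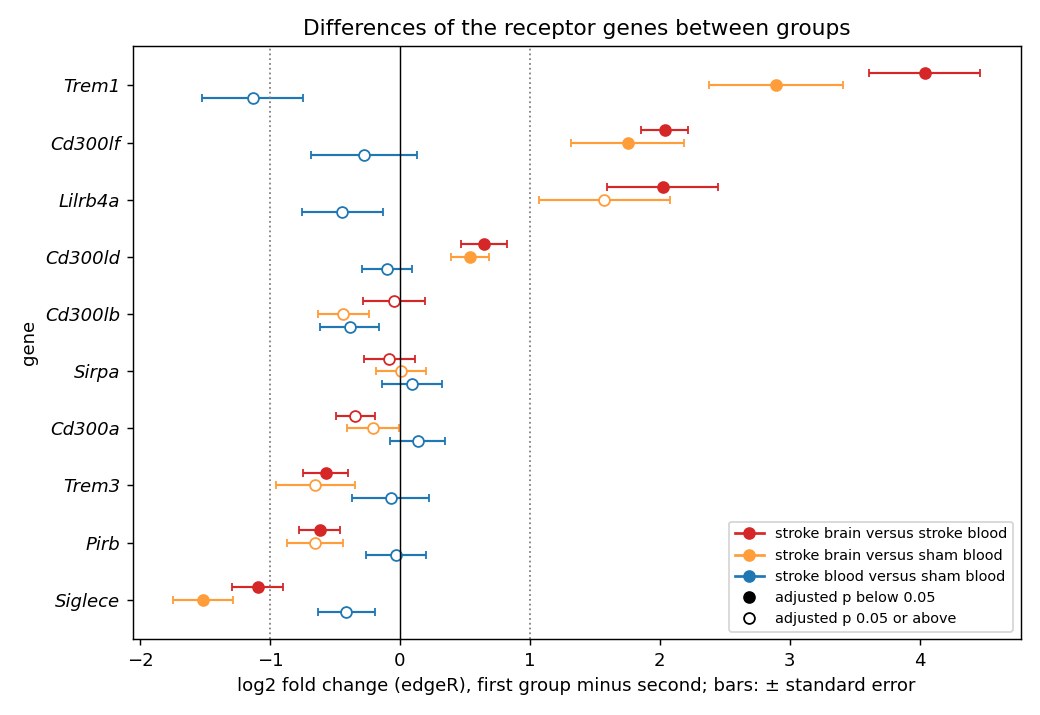
log2 fold change of each receptor gene in the 3 comparisons (first group minus second, edgeR), with bars of ± 1 standard error, dotted lines at -1 and 1 and filled points for a Benjamini-Hochberg adjusted p below 0.05. *Trem1* lies at 4.04 and 2.89 for brain against stroke blood and sham blood, *Siglece* at -1.10 and -1.52, and none of the points of stroke against sham blood is filled.

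The second comparison asked whether the stroke changed the same receptors in circulating cells. None of the 10 members was a DEG between stroke blood and sham blood, where 0.0079% of the 12664 genes tested, a single gene, was one. At an unadjusted p below 0.05 there was 1 member, *Trem1*, against 12.5% of all genes, and DESeq2 called 0 members. All 10 members overlapped between the groups, while 18.4% of all genes did not. The members' median log2 fold change was -0.19 and that of all genes -0.03.

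*Trem1* was at 16.2, 21.02 and 44.8 CPM in sham blood, so that only stroke blood replicate 1 reached the range of sham. Its log2 fold change of -1.13 (SE 0.39) had an edgeR adjusted p of 0.328 (unadjusted p = 0.0166). With no filter on low counts it was -1.16 with an adjusted p of 0.0421, without sham replicate 3 it was -0.59 with an adjusted p of 0.559, and without sham replicate 1, the library low in erythroid and platelet genes, it was -1.40 with an adjusted p of 0.122. Without that library 16 genes in all were DEGs and none was a member. The other 9 log2 fold changes lay between -0.44 (*Lilrb4a*, SE 0.31) and 0.14 (*Cd300a*, SE 0.21), with edgeR adjusted p of 0.471 or more. *Cd300lf* at 20.2, 43.4 and 81.1 CPM and *Trem3* at 61.1, 95.0 and 154 CPM spread widely in sham blood and covered all their stroke blood values.

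Sham blood replicate 3 was at an end of its group for all 10 members, the highest for 7 and the lowest for *Cd300a*, *Cd300lb* and *Lilrb4a*, where it was at an end for 66.4% of 13556 genes. It had the highest sums of the neutrophil list, 3393 CPM against 1049 and 1235 CPM, and of 5 classical monocyte genes, 33092 CPM against 15078 and 17638 CPM. Without it, the log2 fold changes of *Trem3*, *Cd300lf* and *Pirb* between stroke and sham blood were 0.32, 0.31 and 0.24 in place of -0.07, -0.28 and -0.03, none with an adjusted p below 0.05. The part of these cells in the sham values was not tested.

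The third comparison, which shares the brain libraries with the first, set stroke brain against sham blood. *Trem1* was 7.44-fold higher in brain and *Cd300lf* 3.37-fold, and *Siglece* was 2.86-fold lower. These 3 of 10 members were DEGs, 2 higher and 1 lower, where 13.4% of the 13020 genes tested were DEGs, 9.75% higher and 3.67% lower. For 7 of 10 members the groups did not overlap, against 41.3% of all genes, and 4 of 10 passed the adjusted p without the fold threshold, 3 higher and 1 lower, against 19.8% (12.1% higher and 7.68% lower).

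The log2 fold change of *Trem1* was 2.89 (SE 0.51, edgeR adjusted p = 0.00874), and without any 1 library it was between 2.37 and 3.45 with an adjusted p of at most 0.0391. *Siglece*, at 86.3, 68.0 and 117 CPM in sham blood, had a log2 fold change of -1.52 (SE 0.23, edgeR adjusted p = 0.00506). For *Cd300lf* it was 1.75 (SE 0.44, edgeR adjusted p = 0.0278), but the adjusted p was 0.0909 without sham replicate 2, 0.0818 without brain replicate 2 and 0.07 without brain replicate 3, and the log2 fold change was 2.35 without sham replicate 3. *Lilrb4a*, at 27.4, 15.0 and 11.98 CPM in sham blood, was at 1.57 (SE 0.51, edgeR adjusted p = 0.0652) without overlap between the groups, at 0.82 without brain replicate 1 and at 2.01 without sham replicate 1. DESeq2 called it (1.57, adjusted p = 0.00571). *Cd300ld* was at 0.54 (SE 0.15, edgeR adjusted p = 0.0391), below the fold threshold. Without sham replicate 1 the same 3 members were DEGs in edgeR's test, *Trem1* at 2.63 (adjusted p = 0.0248), *Cd300lf* at 1.39 (adjusted p = 0.0216) and *Siglece* at -1.55 (adjusted p = 0.0122), and *Lilrb4a* had an adjusted p of 0.0544.

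The remaining 5 members did not pass. *Pirb* (-0.66, SE 0.22, edgeR adjusted p = 0.0699) and *Cd300lb* (-0.44, SE 0.20, edgeR adjusted p = 0.157) were lower in all brain than in all sham libraries. For *Cd300lb* the highest brain library was at 291.96 CPM and the lowest sham library at 293.17 CPM, a gap that may depend on the scaling. *Trem3* (-0.65, SE 0.31), *Cd300a* (-0.21, SE 0.20) and *Sirpa* (0.01, SE 0.19) overlapped, with edgeR adjusted p of 0.173, 0.496 and 0.984.

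Levels of different receptors were compared per length, in RPKM over all annotated exon bases. This length can exceed that of a transcript. For *Cd300lf* it was 5149 bases against 1885 in the longest protein-coding transcript, and for *Trem1* 2996 against 2993. The order and the shares below therefore depend on the length used, and an order by transcript length was not computed. *Sirpa* and *Cd300a* had the highest means in every group, 175 ± 19.1 and 141 ± 13.8 RPKM in brain, 188 ± 46.3 and 182 ± 18.4 RPKM in stroke blood and 175 ± 40.5 and 164 ± 42.7 RPKM in sham blood (SD, n = 3). Their library ranges overlapped in both blood groups and not in brain. *Lilrb4a* was the lowest in every group, at 10.2 ± 7.07 RPKM in brain, 2.57 ± 0.376 RPKM in stroke blood and 3.47 ± 1.56 RPKM in sham blood, with the limit on its counts given above. Its length was taken as 5227 exon bases, while its longest protein-coding transcript has 1381 bases. All 1307 windows of 75 bases in that transcript are also in *Gm49339*. Its RPKM may therefore be too low, and its rank is uncertain.

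In stroke blood the order after these was *Pirb* (152 RPKM), *Trem3* (99.2), *Cd300lb* (91.7), *Cd300ld* (74.3), *Siglece* (36.8), *Cd300lf* (7.75) and *Trem1* (4.16). *Trem3* and *Cd300lb*, and *Cd300lb* and *Cd300ld*, overlapped in their library ranges, and the other neighbours from *Pirb* downwards did not. In sham blood the 6 most abundant members formed a chain in which each overlapped the next, and *Cd300lf* overlapped *Trem1*. In brain *Cd300ld* had rank 3 at 114 RPKM, followed by *Pirb* at 97.5, *Cd300lb* at 87.5, *Trem1* at 67.0, *Trem3* at 65.5, *Cd300lf* at 31.3 and *Siglece* at 16.9 RPKM. There the ranges of *Pirb*, *Cd300lb*, *Trem1* and *Trem3* overlapped from one to the next, as did those of *Siglece* and *Lilrb4a*. By all exon bases *Trem1* was thus ninth of the 10 receptors in both blood groups and sixth in brain. It took 4.36% to 13.7% of the summed RPKM of the 10 in brain, 0.371% to 0.771% in stroke blood and 0.685% to 1.51% in sham blood.

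**Figure D3:**
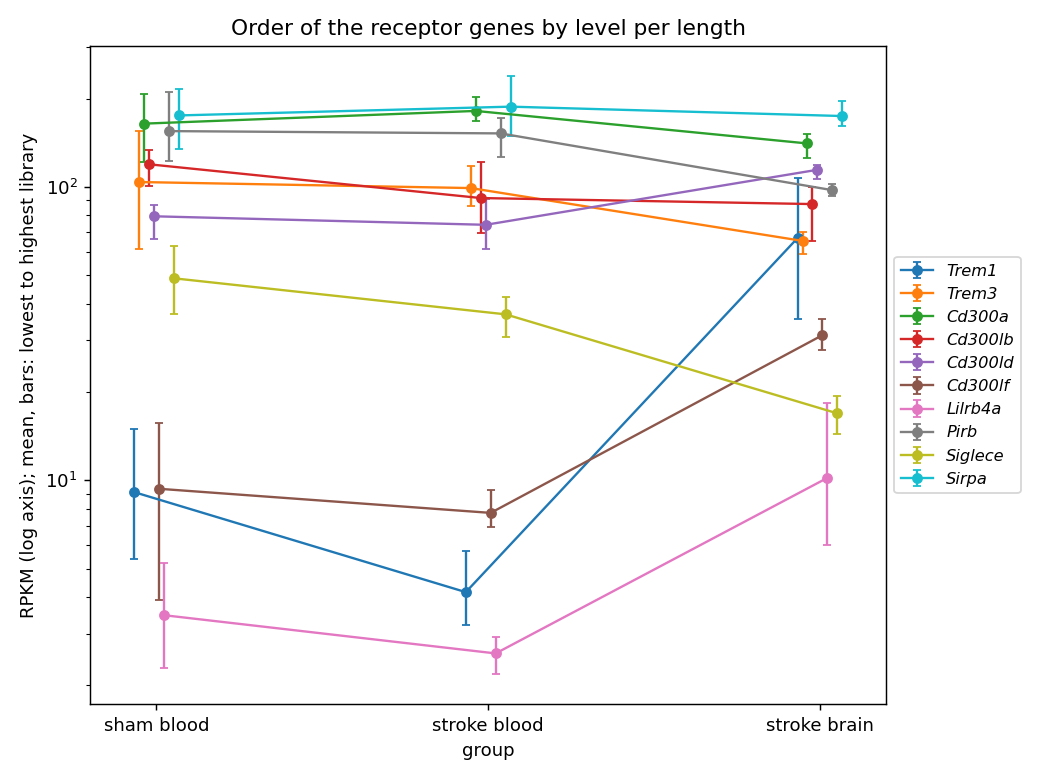
Mean level per length of the 10 receptor genes in each group, in RPKM on a log axis, with bars from the lowest to the highest of the 3 libraries and lines joining the same gene. The lines of *Trem1* and *Cd300lf* cross that of *Siglece* between stroke blood and stroke brain, while *Sirpa* and *Cd300a* stay at the top.

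The nearest relatives of the members were read from lists of genes, without a test of the lists. Of 6 TREM family relatives, 4 were found and tested between brain and stroke blood, with 1 DEG higher and 1 lower, where 21% of all genes tested were DEGs, 13.1% higher and 7.86% lower. The same shares of all genes hold for each list that follows in this comparison. *Trem2*, the lipid receptor of microglia and macrophages, was at 121, 179 and 275 CPM in brain and 102, 65.6 and 108 CPM in stroke blood (log2 fold change 1.08, SE 0.29, edgeR adjusted p = 0.0217). Its order over the brain replicates was the reverse of that of *Trem1*. *Treml1*, a platelet receptor, was the lower DEG, with 0, 0 and 7 counts in brain and 230 to 252 counts in stroke blood, where the platelet genes were also higher than in brain. *Treml4* had a log2 fold change of 0.43 (SE 0.16, edgeR adjusted p = 0.0723).

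Of 9 CD300 family relatives 4 were tested, with 0 DEGs higher and 1 lower (all genes, 13.1% and 7.86%). *Cd300lg*, best known from endothelium, was at 31.8, 29.1 and 29.3 CPM in brain and 91.6, 103 and 96.1 CPM in stroke blood, a log2 fold change of -1.66 (SE 0.16, edgeR adjusted p = 0.000121). The activating *Cd300e*, a receptor of monocytes, was higher in all brain libraries at 98.0, 99.4 and 126 CPM against 80.2, 53.5 and 20.8 CPM, yet with an edgeR adjusted p of 0.0617 (log2 fold change 1.09, SE 0.39). *Cd300c2* was at 0.17 (SE 0.16, edgeR adjusted p = 0.468) on the log2 scale. Against sham blood 2 of the 4 were lower DEGs, where 3.67% of all genes were, and besides *Cd300lg* this was *Fcmr*, the IgM Fc receptor (-1.90, SE 0.42, edgeR adjusted p = 0.0182). The genes *Cd300ld2*, *Cd300ld3*, *Cd300ld4* and *Cd300ld5* were at 0.293 CPM or less in every library.

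Among 26 other paired or inhibitory receptors tested, 8 were DEGs higher in brain and 5 lower, where 13.1% and 7.86% of all genes were, with a median log2 fold change of -0.04. The higher ones included *Lilr4b*, the activating *Lilra5* (1.45, SE 0.32, edgeR adjusted p = 0.00818), the collagen receptor *Lair1* and the B cell receptor inhibitor *Siglecg* (2.33, SE 0.34, edgeR adjusted p = 0.00118). *Siglech*, a DAP12-coupled receptor of microglia and plasmacytoid dendritic cells, had 0 counts in stroke blood and 60.7, 61.1 and 157 CPM in brain, at least 593-fold higher against a floor of 3 counts per library, and its highest library was brain replicate 3, where the microglia sum was also highest. The lower ones were *Clec4a1*, *Clec4a2*, *Clec12a*, *Sirpb1b* and *Sirpb1c*. *Clec4a2*, the ITIM-bearing DCIR, was at 86.3, 82.4 and 87.5 CPM in brain and 176, 182 and 229 CPM in stroke blood (log2 fold change -1.17, SE 0.16, edgeR adjusted p = 0.000745). *Cd33*, another sialic acid receptor, was at 0.86 (SE 0.19, edgeR adjusted p = 0.00809), below the fold threshold and opposite in sign to *Siglece*.

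Downstream of the activating receptors, 15 ITAM adaptor and signalling genes held 1 higher and 1 lower DEG, where 13.1% and 7.86% of all genes were, so that DEGs were no more frequent here than among all genes. The median log2 fold change was -0.34, against 0.06 over all genes. *Tyrobp*, the adaptor of TREM1, TREM3 and CD300LB, was at 2085, 2705 and 2519 CPM in brain and 4336, 3869 and 4326 CPM in stroke blood. All brain libraries were below all blood libraries, and the log2 fold change of -0.75 (SE 0.16, edgeR adjusted p = 0.00631) was opposite to that of *Trem1* and below the fold threshold. *Fcer1g* was at -0.74 (SE 0.17, edgeR adjusted p = 0.0108) and *Syk* at -0.18 (SE 0.23, edgeR adjusted p = 0.601). The DEGs were *Lat2*, an adaptor that SYK family kinases phosphorylate (1.11, SE 0.20, edgeR adjusted p = 0.00326), whose exons overlap *Rfc2* on the other strand, and *Hcst*, the adaptor DAP10 (-1.06, SE 0.18, edgeR adjusted p = 0.00224).

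Among 12 genes for effectors of ITIM receptors, 2 were DEGs and both were higher in brain, a share close to the 13.1% of all genes that were higher DEGs. The median log2 fold change over the list was -0.20. They were the adaptors *Dok2* (1.81, SE 0.18, edgeR adjusted p = 0.000164) and *Grb2* (1.10, SE 0.19, edgeR adjusted p = 0.00288). The phosphatase genes differed from each other: *Inpp5d* was at 406, 375 and 406 CPM in brain and 188, 297 and 211 CPM in stroke blood, a log2 fold change of 0.80 (SE 0.19, edgeR adjusted p = 0.0122), while *Ptpn6*, whose exons overlap *Gm20531* on the other strand, was at -0.11 (SE 0.16, edgeR adjusted p = 0.644).

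Of 14 tested genes for ligands and binding partners, 5 were DEGs higher in brain and 1 was lower, where 13.1% and 7.86% of all genes were. *Thbs1*, thrombospondin 1, which binds CD47, was at 5.12 (SE 0.34, edgeR adjusted p = 2.24e-05), with an antisense gene, *Gm29233*, over its exons. *Angptl2*, an angiopoietin-like protein that binds PirB, was at 56.6, 50.1 and 40.8 CPM in brain and 1.82, 5.07 and 0.468 CPM in stroke blood (4.32, SE 0.62, edgeR adjusted p = 0.00101). *Apoe*, a lipid carrier that TREM2 binds, was at 1.95 (SE 0.22, edgeR adjusted p = 0.000288). *Pglyrp1*, a ligand of TREM1, was at 61.2, 69.3 and 89.8 CPM in brain and 131, 104 and 102 CPM in stroke blood, a log2 fold change of -0.59 (SE 0.19, edgeR adjusted p = 0.0407) that was opposite to that of *Trem1*.

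Of 12 cytokine, chemokine and costimulatory genes that TREM1 signalling is known to raise, as many other signals do, 8 were DEGs higher in brain and 0 lower, where 13.1% and 7.86% of all genes were, with a median log2 fold change of 2.83. *Ccl2* (4.50, SE 0.51, edgeR adjusted p = 0.00032), *Il1b* (3.93, SE 0.30, edgeR adjusted p = 3.83e-05) and *Ccl4* (3.55, SE 0.53, edgeR adjusted p = 0.0013) had the largest differences, *Il1b* with the antisense gene *Il1bos* over its exons. *Tnf*, *Icam1*, *Cd40* and *Nlrp3* were not DEGs. The levels of *Ccl2* over brain replicates 1, 2 and 3, at 127, 334 and 286 CPM, had another order than those of *Trem1*.

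**Figure D4:**
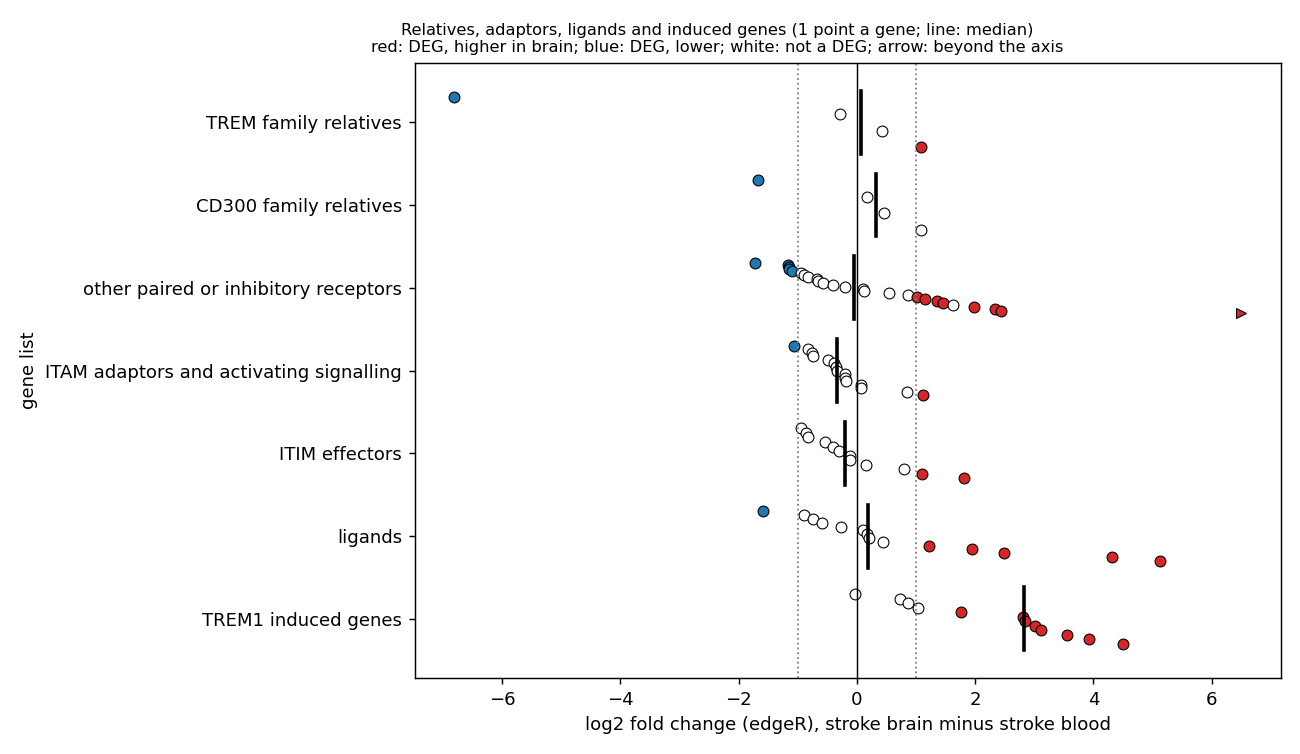
log2 fold change between stroke brain and stroke blood (edgeR) of the tested genes in 7 lists of relatives, signalling partners, ligands and induced genes, 1 point a gene, with the median of each list as a line. The TREM1 induced genes lie mostly to the right with a median of 2.83, while the adaptors and ITIM effectors lie around medians of -0.34 and -0.20. The leftmost point (*Treml1*) and the arrow (*Siglech*) rest on libraries with 0 counts and are no measure of size.

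Between stroke and sham blood none of these lists held a DEG in edgeR's test. Between brain and sham blood, where 13.4% of all genes were DEGs, 9.75% higher and 3.67% lower, 8 of the 12 TREM1 induced genes were higher DEGs and 0 lower. Of the 26 other receptors 5 were higher DEGs and 3 lower, of the 14 ligand genes 5 and 1, and of the 4 TREM family relatives 1 and 1. The 12 ITIM effector genes held 1 higher DEG and 0 lower, and the 15 ITAM genes held 0. *Lair1* was at 1.87 (SE 0.23, edgeR adjusted p = 0.00233) there.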

How the data were processed

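Each library gave 1 table of raw counts per gene. The authors checked reads with FastQC in Chipster, mapped them with HISAT2 to GRCm38 and counted them with HTSeq, and the deposited counts are not normalized. Versions, annotation release and strand setting are not given in the sources used here, so counts of genes with overlapping exons are uncertain. Such overlaps are named for the members, the genes named by rule and the genes of like pattern. They were not looked up for the genes added later. Symbols, exons and lengths came from GENCODE M21, where 52019 of 53801 genes had the same position.

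Groups and replicate numbers came from the sample titles. Chi-square tests of the counts of 2 replicates gave 26.2 to 152 per degree of freedom, above the value of about 1 for sampling noise, so each library counted as its own replicate. p-values measure the spread between mice in blood and between pools in brain. Intervals from counting were not used, and the floor (3 counts) holds for counting error alone, since reads carried no molecular identifiers.

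Each pair of groups was fitted with edgeR 4.0.16 (R 4.3.3): TMM normalization, the default filter on low counts, the quasi-likelihood test and Benjamini-Hochberg adjustment over all genes tested. The SE is the log2 fold change over the square root of F. The method was tested on simulated data. RPKM divides TMM-scaled CPM by all exon bases of a gene. The study used DESeq2 for its tests, and DESeq2 1.42.0 was an alternative here, with RLE scaling, library size only, no filter, a mean of at least 50 counts, all 9 libraries in a single fit, a replicate block, no fold change threshold and each library left out. Figures used matplotlib 3.10.9.

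Members, lists and motifs were chosen with earlier results of these data known. Named genes were all members, a set of genes from the lists, and per list and comparison up to 3 DEGs of largest change with a mean log2 CPM above 3; *Hcst*, *Lat2* and the like follow from this rule, while *Lilra6*, *Pira2*, *Pglyrp1*, *Sirpb1b*, *Sirpb1c*, *Clec4a1*, *Clec12a*, *Itgax*, *Ly6g*, *Nr4a1*, the neutrophil genes and the genes named as not called were added after their values were seen. Likeness between genes was the root mean square difference of centred log2 CPM (prior count 2) over the 9 libraries.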

Additional observations from a re-analysis of the deposited data

How the results depend on the processing

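Of 420 log2 fold changes of the members under other settings, 388 kept their direction and their side of the thresholds, 5 no longer passed, 9 passed only there and 18 changed sign, the last all in results whose reported log2 fold change was at most 0.28 in size. *Trem1*, *Cd300lf* and *Lilrb4a* between brain and stroke blood were called in every fit. The number of members that were DEGs between brain and stroke blood was 4 as reported, 7 with no fold change threshold (*Trem3*, *Cd300ld* and *Pirb* added) and 3 to 4 with 1 library left out. Library size only moved the median log2 fold change of all genes from 0.06 to 0.22, and *Cd300lb* was then at 0.10 and *Sirpa* at 0.072. With 1 library left out, *Cd300lb* ranged from -0.24 to 0.17 and *Sirpa* from -0.25 to 0.088.

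Between stroke and sham blood the DEGs among all genes were 1 as reported, 127 with DESeq2, 160 with no filter and 0 to 16 with 1 library left out, and members were 0, or 1 (*Trem1*) with no filter. The cause of these larger counts was not tested. With 1 library left out, the log2 fold change ranged from -0.34 to 0.32 for *Trem3*, -0.047 to 0.34 for *Cd300a*, -0.31 to 0.013 for *Cd300ld*, -0.65 to 0.31 for *Cd300lf*, -0.17 to 0.24 for *Pirb* and -0.15 to 0.26 for *Sirpa*. Between brain and sham blood, members were 3 as reported, 2 to 3 with 1 library left out and 4 with *Lilrb4a* (DESeq2, no filter, all 9 libraries, block), and DEGs among all genes were 1146 to 1883 with 1 library left out against 1748. *Sirpa* was at -0.0068 with no filter and -0.15 to 0.18 with 1 library left out.

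The replicate numbers gave no sign of pairing: correlations of the deviations of same-numbered libraries were -0.071 to 0.070, and not every library correlated best with its own number. With 3 libraries per group this cannot show that the samples were unpaired. With the replicate block the DEGs were 2634, 1 and 1571 genes for the 3 comparisons in the order reported, with 4, 0 and 4 members, and *Trem3* between stroke and sham blood was at 0.011.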

Other observations

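The genes whose pattern over the 9 libraries was most like that of each member were found among 7927 genes with a mean log2 CPM above 3, as the smallest root mean square difference of centred log2 CPM. For *Trem1* they were *Stmn1* (0.53), *Mxd1* (0.53) and *Tnfsf9* (0.53), where the spread of *Trem1* itself was 1.74, so that even the closest patterns were not near. For *Cd300lf*, with a spread of 1.06, they were *Slc27a1* (0.19), *Cpne2* (0.20) and the cathepsin gene *Ctsl* (0.26). For *Lilrb4a* (spread 0.93) they were *Pde4b* (0.26), *Fem1c* (0.27) and *Tiparp* (0.29). The nearest to *Siglece* (spread 0.68) were *Mocos* (0.19) and 2 other receptors of myeloid cells, *Lilra6* (0.19) and *Clec4a2* (0.20). *Trem3* (spread 0.44) was nearest to *Mgst3* (0.11), *Acaa1a* (0.13) and *Cbr3* (0.13), and *Acaa1a* (0.13) was also the second nearest to *Pirb*, between *Galns* (0.11) and *Chid1* (0.14). The other members had spreads of 0.24 to 0.34, and their nearest genes were *Socs6*, *Trnt1* and *Mtpap* for *Cd300a*, *Terf2ip*, *Sft2d2* and *Smg8* for *Cd300lb*, *Ewsr1*, *Paf1* and *Golga5* for *Cd300ld*, and *Dnlz*, *Chpf2* and *2610507B11Rik* for *Sirpa*, at 0.071 to 0.12. All these points share the same libraries, and no test was made of the likeness. *Stmn1*, *Ctsl*, *Mtpap* and *Chpf2* share exon bases with a gene on the same strand. *Tnfsf9*, *Tiparp*, *Acaa1a*, *Chid1*, *Trnt1*, *Terf2ip*, *Ewsr1*, *Dnlz* and *2610507B11Rik* share them with a gene on the other strand. The counts of these genes are therefore uncertain.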
